A study of Mus musculus with 3 samples.

Results

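In mouse fetal liver at E14.5, a mid-gestation stage, 37 probes for 37 genes read at no more than 0.5 times the wild-type value on both mutant arrays. They were chosen on those readings, from 20289 probes, of which those with 1 gene symbol cover 13769 genes. A probe qualified if the annotation gave it 1 gene symbol, if it read above 1 on the wild-type array and if both mutant values were at or below 0.5 times that reading, after values under 0.16 had been raised to 0.16. Of 8322 probes with 1 symbol and a wild-type value above 1, 44 met these limits (0.529%). Probes for Marco, Cd5l, Clec4f, Fcna, Saa4, Cdc6, Tert and Cspp1 were left out by name, which removed 7 of the 44.

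The 3 genotypes were each measured on 1 single-colour CodeLink oligonucleotide array. They were embryos lacking both DNase II and IFN-IR (double-deficient), embryos lacking DNase II alone (DNase II-deficient) and wild-type embryos. In lysosomes of macrophages DNase II breaks down DNA taken in with dead cells and expelled red cell nuclei, and IFN-IR is the receptor for type I interferon. Both mutants thus lack the nuclease, and the double-deficient embryos cannot sense type I interferon through that receptor either. The labels name no strain, sex, kind of allele or number of embryos per array. Without replicates, every value below comes from a single array and carries no error and no test, and the number of arrays limits the precision. Both limits also use the same wild-type array, and a high reading there cannot be told apart from a low level in both mutants.

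The liver of the embryo has 2 tasks at this stage. Most red cells of the embryo form there, and its hepatocytes, still immature, secrete plasma proteins such as albumin, alpha-fetoprotein and apolipoproteins. The enzymes for urea synthesis, the handling of amino acids, the conjugation of steroids and foreign compounds, and the export of bile acids belong to the hepatocyte as well, and many of them reach their full level only around or after birth. By textbook role, 23 of the 37 genes fell among enzymes of this kind, transporters, and secreted or hormone-related genes. The other 14 were mitochondrial factors, factors acting on DNA or chromatin, and receptors, adhesion or signalling genes. These roles were assigned after the members were known and were not counted over all probes compared. A role does not by itself place a gene in hepatocytes, and the 23 include Mrap, Iyd, Nipa1 and Cptp.

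RefSeq promoter windows of the GRCm38.p6 build, covering 250 bases before to 50 bases after the annotated start, were given for 30 of the 37 genes. Those of Abcb11, Otc, Bhmt and Pon1 are shown because these liver genes lay well below wild-type on both mutant arrays and kept to both limits under every scaling tried. Capitals mark the letters AGGTCA, a half-site of many nuclear receptors, GATAA, the core of GATA factor sites, CCAAT and CACCC, on either strand. The Abcb11 window is chr2:69342567-69342866 on the minus strand, that of Otc is chrX:10252055-10252354 on the plus strand, that of Bhmt is chr13:93637709-93638008 on the minus strand and that of Pon1 is chr6:5193897-5194196 on the minus strand.
Abcb11: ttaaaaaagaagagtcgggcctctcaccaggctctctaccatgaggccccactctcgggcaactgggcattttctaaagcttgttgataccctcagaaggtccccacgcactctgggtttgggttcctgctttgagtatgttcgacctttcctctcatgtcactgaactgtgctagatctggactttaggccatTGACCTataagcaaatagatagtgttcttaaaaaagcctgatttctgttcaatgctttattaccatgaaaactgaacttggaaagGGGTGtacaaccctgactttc
Otc: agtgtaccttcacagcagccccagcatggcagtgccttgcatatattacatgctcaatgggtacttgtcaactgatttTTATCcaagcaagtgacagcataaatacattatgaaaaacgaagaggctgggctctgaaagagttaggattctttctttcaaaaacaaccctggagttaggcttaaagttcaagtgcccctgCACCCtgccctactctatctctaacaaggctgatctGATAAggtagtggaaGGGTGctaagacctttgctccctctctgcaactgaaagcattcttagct
Bhmt: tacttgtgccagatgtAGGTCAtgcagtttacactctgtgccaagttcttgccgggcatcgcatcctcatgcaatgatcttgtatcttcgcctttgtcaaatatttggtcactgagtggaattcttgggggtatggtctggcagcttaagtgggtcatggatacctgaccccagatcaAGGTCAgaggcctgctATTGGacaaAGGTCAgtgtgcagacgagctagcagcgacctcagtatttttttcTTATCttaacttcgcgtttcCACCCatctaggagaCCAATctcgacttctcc
Pon1: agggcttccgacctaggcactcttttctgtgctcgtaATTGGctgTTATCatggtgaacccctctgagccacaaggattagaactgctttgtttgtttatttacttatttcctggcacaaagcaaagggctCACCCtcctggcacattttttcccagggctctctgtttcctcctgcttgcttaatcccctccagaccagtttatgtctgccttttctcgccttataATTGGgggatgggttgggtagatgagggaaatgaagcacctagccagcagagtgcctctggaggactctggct
The Bhmt window held AGGTCA 3 times, at 234, 72 and 47 bases before the start, and the Abcb11 window held its reverse complement TGACCT once, 56 bases before the start. Otc had GATAA 14 bases before the start and its reverse complement TTATC further upstream.

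Among the first-listed windows of the 30 member genes, AGGTCA or its complement occurred in 5 (16.7%), against 13.2% of the 6389 windows of all genes compared. GATAA occurred in 7 (23.3%) against 18.2%, CCAAT in 12 (40.0%) against 39.2%, CACCC in 23 (76.7%) against 61.5%, and TATAAA in 3 (10%) against 8.61%. No member window held TTTGGCGC or TTTCCCGC, the letters of common E2F sites, which occurred in 1.03% and 2.24% of all windows. GTTAAT, a half-site of HNF1, was found in 3 windows (10% against 4.85%), those of Hao2, Itih1 and Slc22a8, and CAAAGTCCA, a form of the HNF4 site, in 2 (6.67% against 0.470%), those of Aadat and Cptp. The letters of the nuclear receptor, HNF1 and HNF4 sites were added after the members were known. The counts are small, no enrichment was computed, and a match is a run of letters and not a measured binding site. The promoters of the 17 enzyme, transporter, secreted and hormone-related genes with a window had a median GC content of 49.3%, against 63.7% in the 13 windows of the other roles and 60% in all genes compared.

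Across the 37 probes the median log2 difference was -1.23 in double-deficient minus wild-type and -1.78 in DNase II-deficient minus wild-type. All 8322 probes compared had medians of -0.09 and -0.24 in these comparisons. In all, 65 probes (0.781%) were at or below 0.5 times wild-type on the double-deficient array and 540 (6.49%) on the DNase II-deficient array. These values chose the members and are given as a description. The probes covered wild-type readings of 1.0 to 33.8 with a median of 2.72. For scale, the medians over each whole array were 0.963, 0.959 and 0.958 in the double-deficient, DNase II-deficient and wild-type arrays. Of the members, 16 were at or below the array median on both mutant arrays and 13 read no more than 2 in wild-type, so many were dim. A lower level in whole liver RNA may mean fewer cells of a type or less RNA per cell, which cannot be told apart here.

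**Figure D1:**
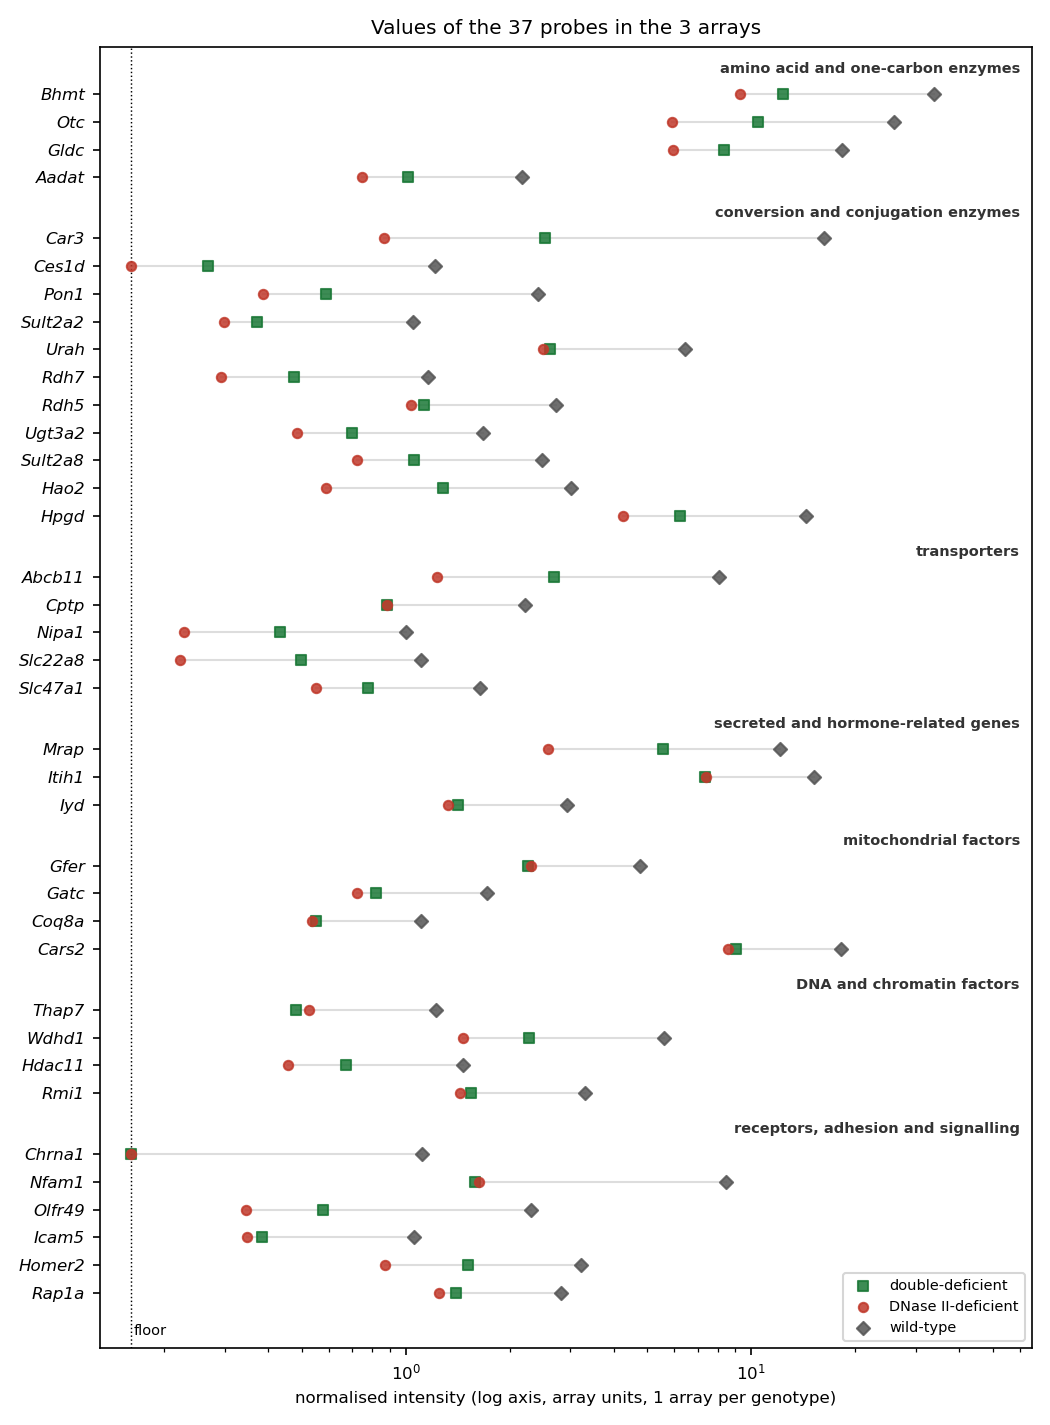
Normalised intensity (log axis) of the 37 probes on the double-deficient (squares), DNase II-deficient (circles) and wild-type (diamonds) arrays, 1 array per genotype, with genes in rows grouped by role. The dotted line is the floor of 0.16, where both Chrna1 mutant values and the DNase II-deficient value of Ces1d lie, and the wild-type value is the highest in every row because the genes were chosen so.

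**Figure D2:**
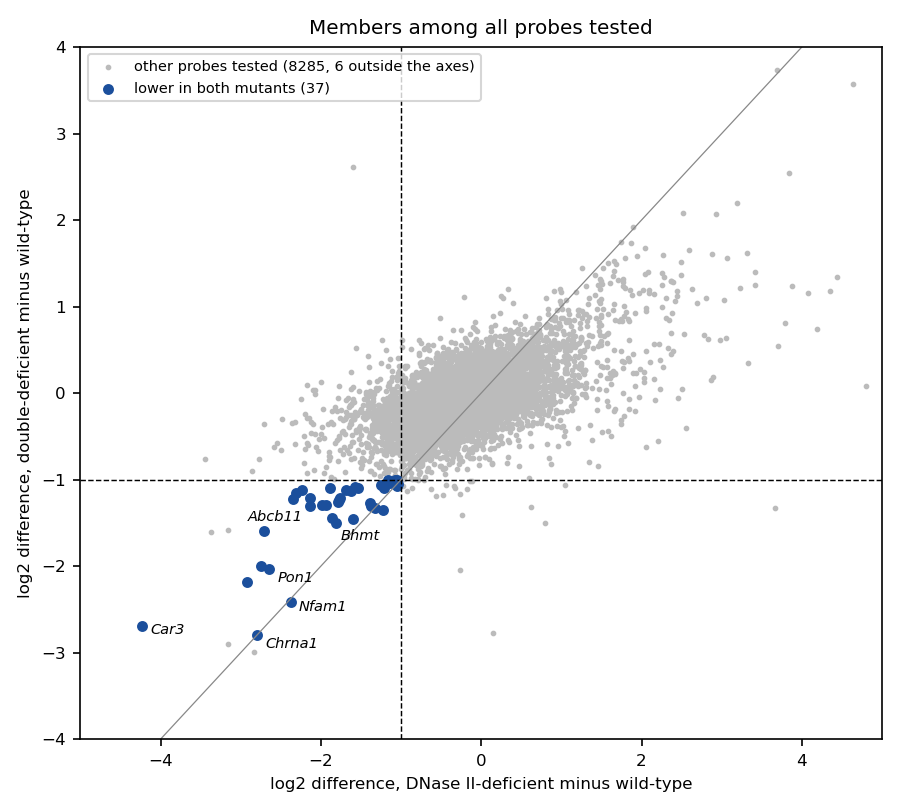
Log2 differences from wild-type in the DNase II-deficient array (x axis) and the double-deficient array (y axis) for 8322 probes, with the 37 members in blue and dashed lines at the limit of -1. Grey points inside the lower left corner were left out by name, both axes share the wild-type array, and most members lie above the diagonal, on the side where the double-deficient value is the higher of the mutant values.

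The enzymes of amino acid and one-carbon metabolism in the list were Otc, Bhmt, Gldc and Aadat. Otc encodes ornithine transcarbamylase, the mitochondrial urea cycle enzyme that joins carbamoyl phosphate to ornithine. It read 10.5 in the double-deficient array, 5.92 in the DNase II-deficient array and 25.9 in the wild-type array, or 2.48-fold and 4.38-fold lower in these mutants. Bhmt, whose product remethylates homocysteine with betaine, read 12.4 in the double-deficient array, 9.30 in the DNase II-deficient array and 33.8 in the wild-type array. Both mutant readings of Bhmt were far above the array medians, so this difference does not rest on dim spots. Gldc encodes glycine decarboxylase of the mitochondrial glycine cleavage system, and its member probe read 8.34 in the double-deficient, 5.94 in the DNase II-deficient and 18.3 in the wild-type array. Aadat, an aminotransferase of lysine and kynurenine breakdown, read 1.01, 0.749 and 2.17 on the double-deficient, DNase II-deficient and wild-type arrays. In all 4 genes the double-deficient value was the intermediate one.

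Of all 8322 probes, 63.0% read below wild-type in the double-deficient array and 69.7% in the DNase II-deficient array, so a value below wild-type was common. The genes that work beside these enzymes were listed after the members were known, and where a single pair of values is given it is the log2 difference of each mutant from wild-type. In the urea cycle, Arg1 (arginase) read 2.64, 2.74 and 4.37 on the double-deficient, DNase II-deficient and wild-type arrays, with log2 differences of -0.73 (double-deficient) and -0.67 (DNase II-deficient). Nags, which makes the activator of the cycle's first step, lay at -0.59 (double-deficient) and -0.76 (DNase II-deficient). Ass1, which makes argininosuccinate, went in opposite directions, at -0.34 in double-deficient and 0.70 in DNase II-deficient minus wild-type. The probes of Asl, the next enzyme, did not go together: one lay at -0.75 (double-deficient) and -0.68 (DNase II-deficient), the other at 0.07 (double-deficient) and 0.29 (DNase II-deficient). Of the 6 urea cycle probes compared, only that of Otc was 2-fold lower in either mutant.

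In the methionine and choline cycle, Bhmt was the only one of 8 probes that was 2-fold lower on both arrays. Dmgdh, which removes a methyl group from dimethylglycine, the product of the Bhmt reaction, followed at -0.77 in double-deficient and -0.89 in DNase II-deficient minus wild-type. Sardh, which acts on sarcosine one step later, was 2-fold lower in the DNase II-deficient array alone, at -0.43 (double-deficient) and -1.31 (DNase II-deficient). Mat1a, the liver methionine adenosyltransferase, was above wild-type, at 0.45 (double-deficient) and 0.28 (DNase II-deficient). Of the glycine cleavage system, Gcsh, the carrier protein, lay at -0.62 (double-deficient) and -1.43 (DNase II-deficient), while Dld, the subunit shared with the pyruvate dehydrogenase complex, lay at -0.25 (double-deficient) and -0.27 (DNase II-deficient). Along the kynurenine pathway all 6 probes compared were below wild-type in both mutants (all probes 63.0% in double-deficient and 69.7% in DNase II-deficient). Aadat, one of the 6, was chosen for being lower. Kynu lay at -0.01 (double-deficient) and -0.86 (DNase II-deficient), so it was nearly equal to wild-type in the double-deficient array. Kmo, the hydroxylase that uses kynurenine, lay at -0.63 (double-deficient) and -0.68 (DNase II-deficient). Thus Aadat alone of these 6 reached 2-fold.

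**Figure D3:**
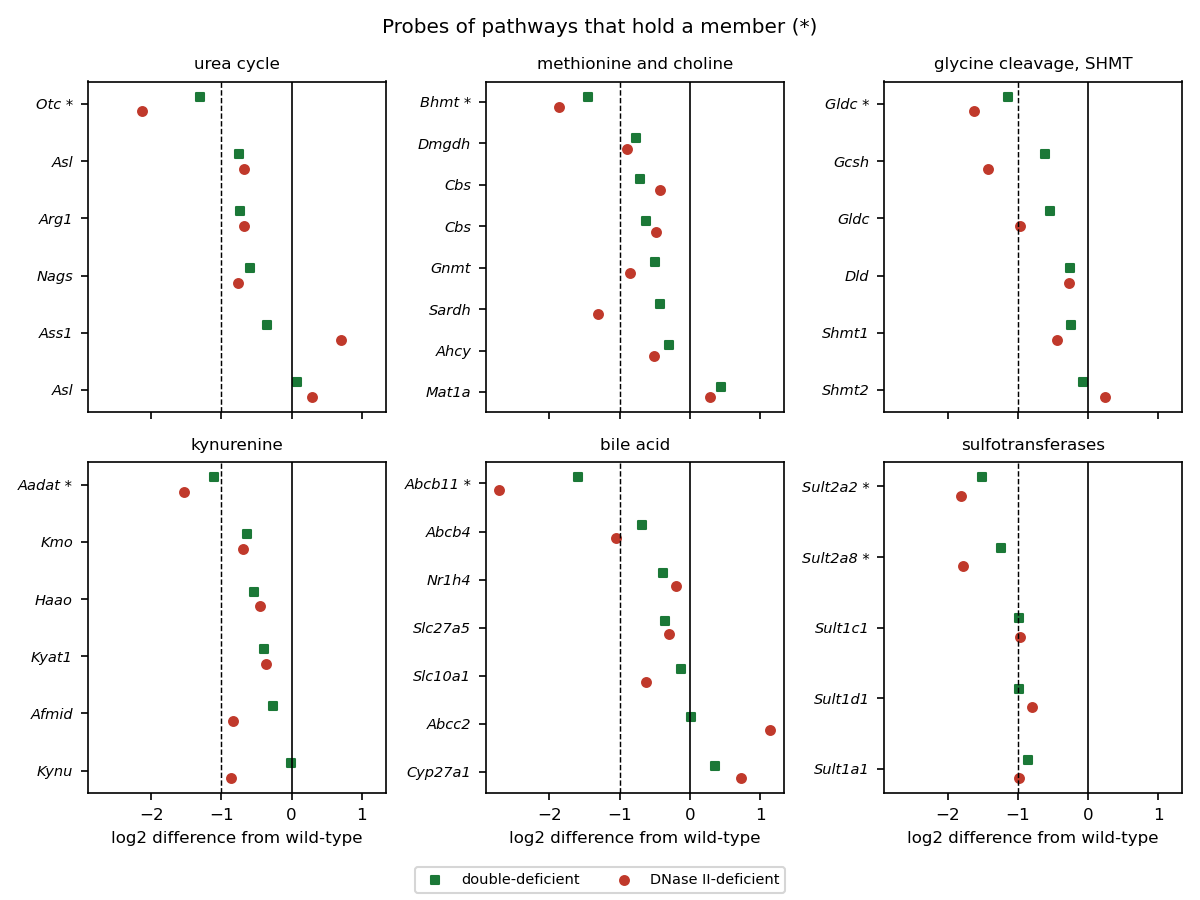
Log2 difference from wild-type of double-deficient (squares) and DNase II-deficient (circles) arrays for probes with a wild-type value above 1 in 6 pathways or families, 1 row per probe, with members starred. The dashed line is the 2-fold limit at -1, and few unstarred genes pass it; Sult1c1 stands next to it on both arrays.

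Enzymes that convert or conjugate lipids, steroids and foreign compounds made up the largest role group, with 11 genes. Car3, a cytosolic carbonic anhydrase, read 2.52 in the double-deficient array, 0.868 in the DNase II-deficient array and 16.3 in the wild-type array. That is 6.46-fold and 18.8-fold lower, the largest difference of any member in the DNase II-deficient array. Of the other carbonic anhydrases, Car5a, the mitochondrial form that supplies bicarbonate to the urea cycle, read 0.535 (double-deficient), 0.259 (DNase II-deficient) and 1.01 (wild-type) and missed the limit on the double-deficient array only. Car2, the form abundant in red cells, was 2-fold lower in the DNase II-deficient array alone, at 284.6 (double-deficient), 130.4 (DNase II-deficient) and 338.1 (wild-type). Car13, a cytosolic form, was above wild-type in both mutants, with log2 differences of 0.22 (double-deficient) and 1.67 (DNase II-deficient).

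Pon1, the esterase that liver secretes onto high-density lipoprotein, read 0.588 in the double-deficient, 0.386 in the DNase II-deficient and 2.41 in the wild-type array, 4.10-fold and 6.25-fold lower. Its neighbours in the family were closer to wild-type: Pon2 lay at -0.43 (double-deficient) and -0.88 (DNase II-deficient), and Pon3 at -0.19 (double-deficient) and 0.85 (DNase II-deficient). Ces1d, a carboxylesterase that hydrolyses triglyceride, read 0.268 in the double-deficient array and 1.22 in the wild-type array. In the DNase II-deficient array it lay below the floor, so it was at least 7.61-fold lower there and 4.53-fold lower in the double-deficient array. Ces1 genes are close copies of each other, and no source used here says whether this probe separates them. Of the 2 other carboxylesterases compared, Ces2a lay at -0.87 (double-deficient) and -0.91 (DNase II-deficient) and Ces1e at -0.54 (double-deficient) and -0.33 (DNase II-deficient).

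The sulfotransferases Sult2a2 and Sult2a8 add sulfate to hydroxysteroids and bile acids. Sult2a8 read 1.05 in the double-deficient, 0.722 in the DNase II-deficient and 2.48 in the wild-type array. The Sult2a2 probe read 0.370 (double-deficient), 0.299 (DNase II-deficient) and 1.05 (wild-type). The genes lie in a cluster of similar copies, with 4 protein-coding genes between them in the RefSeq annotation of GRCm38.p6, and whether the probes separate them is not stated. The 3 remaining sulfotransferases compared were below wild-type as well: Sult1c1 read 8.80 (double-deficient), 8.93 (DNase II-deficient) and 17.5 (wild-type), just short of the limit on both arrays, Sult1d1 lay at -0.99 (double-deficient) and -0.79 (DNase II-deficient), and Sult1a1 at -0.85 (double-deficient) and -0.99 (DNase II-deficient). Ugt3a2, a UDP-glycosyltransferase, read 0.697 (double-deficient), 0.486 (DNase II-deficient) and 1.67 (wild-type). Among other UDP-glycosyltransferases, Ugt2a1 lay at -0.65 (double-deficient) and -1.13 (DNase II-deficient) and Ugt2b34 at -0.24 (double-deficient) and -0.77 (DNase II-deficient), whereas Ugt1a9 lay at -0.55 (double-deficient) and 0.33 (DNase II-deficient).

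Oxidoreductases of retinol, hydroxy acids and prostaglandins formed a further set. Rdh7, a retinol and steroid dehydrogenase, read 0.474 in the double-deficient, 0.293 in the DNase II-deficient and 1.16 in the wild-type array. Rdh5, which oxidises cis-retinol, read 1.13 (double-deficient), 1.04 (DNase II-deficient) and 2.72 (wild-type). The 4 other retinol dehydrogenases compared, Rdh9, Rdh10, Rdh11 and Rdh12, had log2 differences between -0.14 and 0.18 in double-deficient and between -0.60 and 0.36 in DNase II-deficient minus wild-type. Hao2, a peroxisomal oxidase of long-chain hydroxy acids, read 1.29 (double-deficient), 0.589 (DNase II-deficient) and 3.01 (wild-type). Hpgd, which inactivates prostaglandins, read 6.21 in the double-deficient, 4.27 in the DNase II-deficient and 14.4 in the wild-type array, with both mutant readings well above the array medians. Urah acts after urate oxidase in the breakdown of urate, and read 2.61 (double-deficient), 2.49 (DNase II-deficient) and 6.45 (wild-type). Uox, urate oxidase itself, lay at -0.30 (double-deficient) and 0.76 (DNase II-deficient) and did not follow it.

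Among transporters, Abcb11, the bile salt export pump of the canalicular membrane, read 2.68 in the double-deficient array, 1.24 in the DNase II-deficient array and 8.10 in the wild-type array. This is 3.02-fold and 6.55-fold lower. Abcb4, the phospholipid floppase of the same membrane, lay at -0.68 (double-deficient) and -1.05 (DNase II-deficient), and Slc10a1, which takes bile salts up from blood, at -0.13 (double-deficient) and -0.63 (DNase II-deficient). Abcc2, the canalicular pump for conjugated anions, lay at 0.02 in double-deficient and 1.14 in DNase II-deficient minus wild-type. Nr1h4, the bile acid receptor that activates Abcb11, read 0.916 (double-deficient), 1.04 (DNase II-deficient) and 1.19 (wild-type), with log2 differences of -0.38 (double-deficient) and -0.20 (DNase II-deficient).

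The remaining transporters read below 1 on both mutant arrays. Slc22a8, an organic anion transporter, read 0.497, 0.223 and 1.11 on the double-deficient, DNase II-deficient and wild-type arrays, and Slc47a1, which extrudes organic cations, read 0.776, 0.550 and 1.65. Of 7 other Slc22 probes compared, those of Slc22a12 and Slc22a21 were 2-fold lower in the DNase II-deficient array (all probes 6.49%). None was in the double-deficient array (all probes 0.781%), and 7 probes are too few to set against these shares. Nipa1, a magnesium transporter, read 0.432 (double-deficient), 0.229 (DNase II-deficient) and 1.0 (wild-type), the lowest wild-type value of the set. Cptp, which moves ceramide-1-phosphate between membranes, read 0.880 (double-deficient), 0.881 (DNase II-deficient) and 2.21 (wild-type), so that the mutant arrays were nearly equal.

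Of the secreted and hormone-related genes, Mrap brings the receptor for adrenocorticotropic hormone to the cell surface. It read 5.55 in the double-deficient array, 2.58 in the DNase II-deficient array and 12.1 in the wild-type array. Itih1, a heavy chain of the plasma inter-alpha-trypsin inhibitor, read 7.33 (double-deficient), 7.40 (DNase II-deficient) and 15.2 (wild-type), close to the limit on both arrays. The partner chains Itih2 and Itih3 lay at -0.59 (double-deficient) and -0.84 (DNase II-deficient) and at -0.43 (double-deficient) and -0.13 (DNase II-deficient). Itih5 lay at -0.12 (double-deficient) and -0.39 (DNase II-deficient), and Itih4 was above wild-type, at 0.30 (double-deficient) and 0.09 (DNase II-deficient). Iyd, which recovers iodide from iodotyrosines, read 1.42 (double-deficient), 1.33 (DNase II-deficient) and 2.92 (wild-type).

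Mitochondrial factors were few and lay near the limit. Cars2, the mitochondrial cysteinyl-tRNA synthetase, read 9.07 in the double-deficient array, 8.58 in the DNase II-deficient array and 18.1 in the wild-type array. Gatc, a subunit of the enzyme that completes mitochondrial glutaminyl-tRNA, read 0.822 (double-deficient), 0.721 (DNase II-deficient) and 1.72 (wild-type). Its partner subunit Qrsl1 lay at -0.04 (double-deficient) and -0.18 (DNase II-deficient). Besides Cars2 and Gatc, 7 genes of mitochondrial tRNA charging were compared, Qrsl1 included. Their log2 differences ran from -0.26 to 0.42 in double-deficient and from -0.64 to 0.08 in DNase II-deficient minus wild-type. Gfer, the sulfhydryl oxidase of mitochondrial protein import, read 2.26 (double-deficient), 2.30 (DNase II-deficient) and 4.78 (wild-type), and Coq8a, needed for coenzyme Q synthesis, read 0.549 (double-deficient), 0.536 (DNase II-deficient) and 1.11 (wild-type). The other 6 coenzyme Q probes compared lay between -0.20 and 0.38 in double-deficient minus wild-type and between -0.81 and -0.07 in DNase II-deficient minus wild-type.

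Of the DNA and chromatin factors, Wdhd1, which couples the replicative helicase to DNA polymerase alpha, read 2.28 in the double-deficient, 1.46 in the DNase II-deficient and 5.61 in the wild-type array. Of 61 probes in a list of DNA replication and nucleotide supply genes, which does not hold Wdhd1, 0 were 2-fold lower in the double-deficient array (all probes 0.781%) and 16 in the DNase II-deficient array (all probes 6.49%). A probe for the replication gene Cdc6, left out by name, read 21.8 (double-deficient), 20.6 (DNase II-deficient) and 47.2 (wild-type). Rmi1, a partner of the Bloom helicase, read 1.55 (double-deficient), 1.43 (DNase II-deficient) and 3.31 (wild-type), whereas Blm itself lay at -0.28 (double-deficient) and -0.20 (DNase II-deficient) and Top3a at -0.37 (double-deficient) and -0.35 (DNase II-deficient). The chromatin proteins Thap7 and Hdac11 read 0.481 (double-deficient), 0.524 (DNase II-deficient) and 1.23 (wild-type), and 0.672 (double-deficient), 0.456 (DNase II-deficient) and 1.46 (wild-type).

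Receptors, adhesion and signalling genes included some of the largest differences. Nfam1, a receptor of immune cells that signals to NFAT, read 1.59 in the double-deficient array, 1.63 in the DNase II-deficient array and 8.48 in the wild-type array. That is 5.35-fold and 5.19-fold lower, with hardly any difference between the mutants. Olfr49, annotated as an olfactory receptor, read 0.575 (double-deficient), 0.344 (DNase II-deficient) and 2.30 (wild-type). Chrna1, the alpha subunit of the muscle acetylcholine receptor, was below the floor in both mutants and read 1.11 in wild-type, at least 6.96-fold lower in each. Homer2, a synaptic and calcium signalling scaffold, read 1.51 (double-deficient), 0.869 (DNase II-deficient) and 3.22 (wild-type). Rap1a, a small GTPase of adhesion signalling, read 1.40 (double-deficient), 1.25 (DNase II-deficient) and 2.81 (wild-type), and Icam5, an adhesion molecule known from neurons, read 0.385 (double-deficient), 0.348 (DNase II-deficient) and 1.06 (wild-type).

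Setting the mutants against each other asks whether loss of the interferon receptor, in the absence of DNase II, went with values closer to wild-type. The limits were set on these same mutant values and act in opposite directions. The limit on the DNase II-deficient array, where more probes pass, by itself favours a higher double-deficient value. The limit on the double-deficient array favours a lower one. It left out 496 probes that passed the DNase II-deficient limit. All of these necessarily read higher in the double-deficient array, with a median log2 difference of 0.95. The counts are therefore a description of the members and are not read against other probes. Of the 37 members, 31 read higher in the double-deficient than in the DNase II-deficient array and 5 read lower, while 64.1% of all probes compared read higher. After median centring 24 read higher and 13 lower, and after cyclic loess 27 and 10. Both of these lower counts include Chrna1, whose mutant values were below the floor and have no measured order.

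The members' median log2 difference, double-deficient minus DNase II-deficient, was 0.49, and that of all probes 0.14. It depended on how low readings were treated, and a raised floor by itself brings dim mutant values together. With a wild-type minimum of 2 instead, where 24 probes qualified, the median was 0.46 for members and 0.16 for all probes. With the floor raised to 0.5, where all 37 probes still qualified, the members' median was 0.16 and that of all probes 0.14, and a floor at each array's median, where 24 probes qualified, gave 0.13 for members and 0.12 for all probes. At least 2-fold higher in the double-deficient array were 5 members (all probes 3.32%): Car3 by 2.91-fold, Slc22a8 by 2.24-fold, Hao2 by 2.18-fold, Abcb11 by 2.17-fold and Mrap by 2.15-fold. Car3 and Slc22a8 alone passed 2-fold after median centring, and Car3, Slc22a8 and Hao2 after cyclic loess. No member was 2-fold lower there (all probes 2.51%).

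By role, the median log2 difference in double-deficient minus DNase II-deficient was 0.92 for transporters, 0.55 for conversion and conjugation enzymes, 0.46 for amino acid enzymes, 0.33 for DNA and chromatin factors, 0.15 for receptors, adhesion and signalling genes, 0.10 for secreted and hormone-related genes and 0.06 for mitochondrial factors. Each role holds 3 to 11 genes and most ranges overlap: transporters ran from -0.00 for Cptp to 1.16 for Slc22a8, and mitochondrial factors from -0.02 to 0.19. Differences between roles were not tested. As deposited, the 5 members lower in the double-deficient array were Thap7, Nfam1, Gfer, Itih1 and Cptp, with Thap7 at -0.12. Among 12 members the ratio of the mutant values lay between 0.9 and 1.1. They include Chrna1, whose mutant values were both raised to the floor, so its ratio was not measured.

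**Figure D4:**
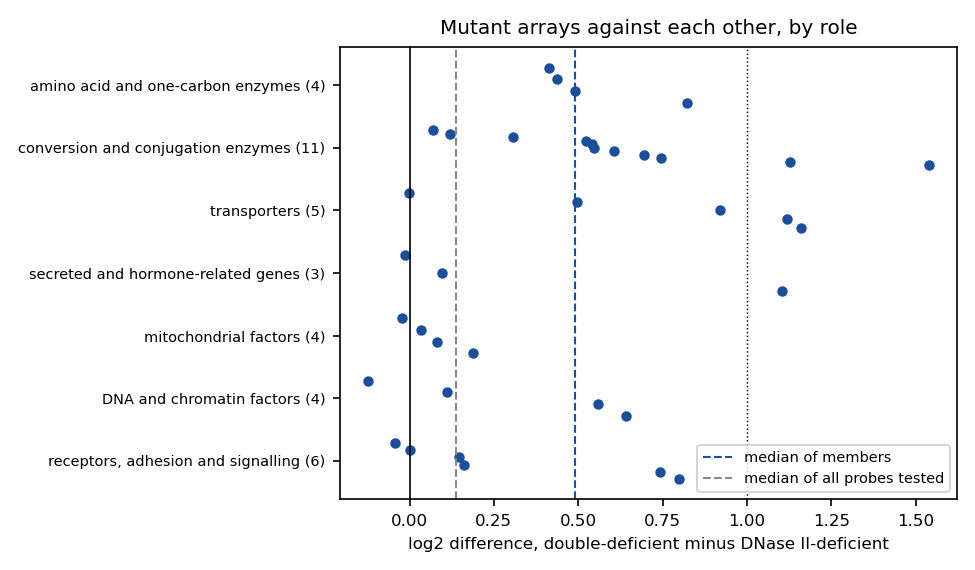
Log2 difference between the double-deficient and DNase II-deficient arrays for each of the 37 members, 1 point per probe in rows by role, with the dotted line at 2-fold. The dashed lines mark the medians of members (0.49) and of all probes compared (0.14), and mitochondrial factors lie near 0 while 5 points of other roles pass 1.

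Of the 37 genes, 6 had another probe on the array that the limits did not select. Having failed the limits is what makes them unselected, and the Rap1a and Rdh5 probes were also below the wild-type minimum, so only their values are given. For Gldc the other probe read 14.3 in the double-deficient, 10.6 in the DNase II-deficient and 20.7 in the wild-type array, with log2 differences of -0.54 (double-deficient) and -0.97 (DNase II-deficient). For Nipa1 the other probe read 5.30 (double-deficient), 1.81 (DNase II-deficient) and 6.80 (wild-type), so it was 2-fold lower in the DNase II-deficient array alone. The other Thap7 probe lay at -0.60 (double-deficient) and -0.62 (DNase II-deficient), and that of Rdh5 at -0.43 (double-deficient) and -0.59 (DNase II-deficient), where all arrays were dim, at 0.178 in double-deficient, below the floor in DNase II-deficient and 0.241 in wild-type. For Chrna1, a second probe of the same transcript accession read 1.72 (double-deficient), 1.61 (DNase II-deficient) and 2.23 (wild-type), with differences of -0.38 (double-deficient) and -0.47 (DNase II-deficient). The other Rap1a probe did not go lower at all, at 0.446 (double-deficient), 0.342 (DNase II-deficient) and 0.308 (wild-type).

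Of these 6 second probes, 5 were thus below wild-type in both mutants. Over all probes 63.0% were below it in double-deficient and 69.7% in DNase II-deficient, and 6 probes are too few to set against these shares. Each of the 5 differed less from wild-type than the probe that had been selected, as choosing the lower probe favours. Among all 448 genes with 2 probes compared, the pair differed by a median of 0.22 in the log2 difference of double-deficient from wild-type and of 0.30 in that of DNase II-deficient from wild-type. For Gldc the gap was 0.60 in double-deficient and 0.66 in DNase II-deficient minus wild-type. For Chrna1, whose selected probe was below the floor in both mutants, it was at least 2.42 in double-deficient and at least 2.33 in DNase II-deficient minus wild-type. For the 31 genes with a single probe the array holds no second reading.

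**Figure D5:**
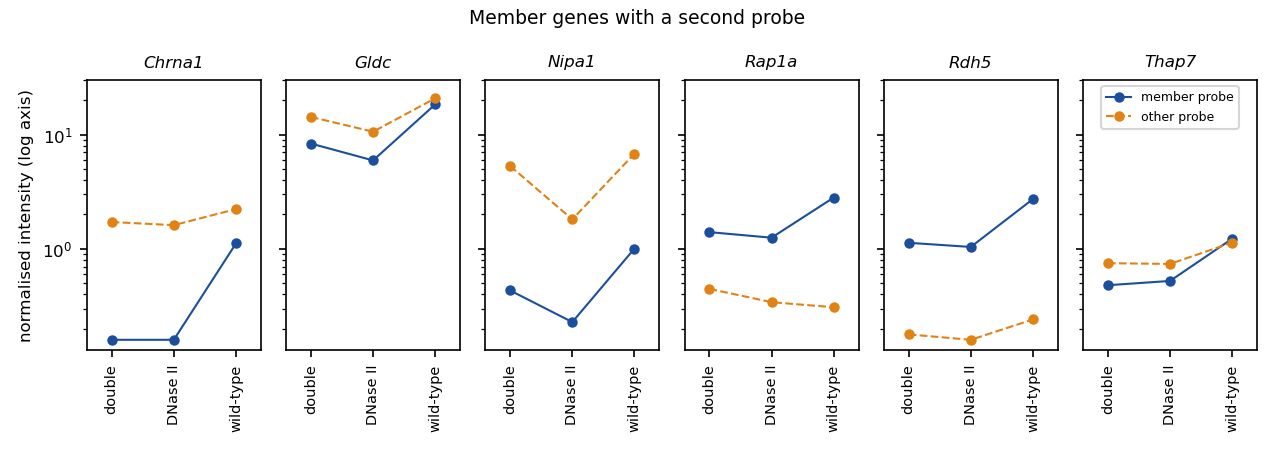
Normalised intensity (log axis) on the double-deficient, DNase II-deficient and wild-type arrays for the 6 member genes with another probe; solid lines are the selected probes and dashed lines the others. Both Gldc lines are lowest in the DNase II-deficient array, whereas the other Chrna1 probe stays between 1.61 and 2.23 and the other Rap1a probe is highest in the double-deficient array.

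How unusual a 2-fold lower value was depended on the array. Among the 4395 probes with a wild-type value above 5, the central 95% of log2 differences ran from -0.70 to 0.61 in double-deficient and from -1.42 to 1.09 in DNase II-deficient minus wild-type. For the 1713 probes between 1 and 2 these ranges were -0.79 to 0.92 and -1.31 to 1.75. The limit of -1 therefore lay outside the central range in the double-deficient array and inside it in the DNase II-deficient array at both levels. Probes that met both limits made up 0.410% of the brighter probes and 0.817% of the dimmer ones, and the 37 members split into 12 above 5, 12 between 2 and 5, and 13 up to 2.

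A set of 5 members stood just inside the limits, with the larger of the mutant ratios at 0.486 for Iyd, 0.488 for Itih1, 0.496 for Coq8a, 0.499 for Rap1a and 0.4998 for Cars2. Just outside were Pbx3, Gnaz, Rusf1, Gnat1 and Sult1c1, at 0.502, 0.506, 0.508, 0.510 and 0.511. The array scale decided membership near the limit: after quantile, 75th percentile, median-centred and cyclic loess scaling, 26 members met both limits every time, and Cars2, Gfer, Itih1, Iyd and Rap1a met them under none of these. Car3, Abcb11, Otc, Bhmt, Pon1, Hpgd and Nfam1 were among the 26.

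Of the wider liver lists, hepatic metabolism held 3 members among 43 probes and plasma proteins held 1 among 46. Over all probes compared, 0.529% met both limits, and these member counts are small. Among 43 probes of a hepatic metabolism list, 5 were 2-fold lower in the double-deficient array (background 0.781%) and 5 in the DNase II-deficient array (background 6.49%), and the members Car3, Otc and Bhmt were in both counts. The others were Hpd, a tyrosine breakdown enzyme, and Cyp2d26 in the double-deficient array, and the gluconeogenic enzyme G6pc and Cyp2e1 in the DNase II-deficient array. Cyp2d26 went in opposite directions, with log2 differences of -1.07 in double-deficient and 1.05 in DNase II-deficient minus wild-type. The list medians were -0.12 in double-deficient and -0.28 in DNase II-deficient minus wild-type, near the -0.09 and -0.24 of all probes. Of 46 plasma protein probes, Itih1 alone was 2-fold lower in the double-deficient array, and 6 were in the DNase II-deficient array. The plasma protein medians were -0.41 in double-deficient and -0.31 in DNase II-deficient minus wild-type. Of the 46 probes, which include the member Itih1, 39 were below wild-type in double-deficient (background 63.0%) and 32 in DNase II-deficient (background 69.7%). The other 13 lists, of red cell, replication, mitosis, macrophage, lymphoid, other blood cell, stromal, p53, interferon-stimulated and housekeeping genes, held no member, where 0.529% of all probes met both limits. Genes left out by name that met them include the macrophage genes Marco, Cd5l, Clec4f and Fcna and the replication gene Cdc6. Both liver lists and the rest were written with earlier results of these data known.

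Markers of hepatocytes did not go together. Of 7, 5 read below wild-type in double-deficient (all probes 63.0%) and 3 in DNase II-deficient (all probes 69.7%). Log2 differences were -0.41 (double-deficient) and -0.40 (DNase II-deficient) for Apoa1 and -0.47 (double-deficient) and -0.53 (DNase II-deficient) for Apoa2. Fgb and Trf were above wild-type in both mutants. Over 7 measured markers the summed reading was 2464 in the double-deficient, 2816 in the DNase II-deficient and 2731 in the wild-type array, and none was at the floor. Alpha-fetoprotein (Afp) read 568 (double-deficient), 885 (DNase II-deficient) and 583 (wild-type), and transthyretin (Ttr) 379 (double-deficient), 466 (DNase II-deficient) and 429 (wild-type); Serpina1a, an antitrypsin gene with close copies, was 2-fold lower in the DNase II-deficient array, at 248 (double-deficient), 130 (DNase II-deficient) and 294 (wild-type). The fetal liver label fits these readings and those of 8 erythroid markers, which summed to 1649 (double-deficient), 1452 (DNase II-deficient) and 1794 (wild-type). Hba-a1 and Hbb-bt made up most of that sum. Of the 8, Gata1, Epor, Klf1, Slc4a1 and Epb42 were 2-fold lower in the DNase II-deficient array (5 probes, background 6.49%). None was 2-fold lower in the double-deficient array (background 0.781%). The erythroid medians were -0.21 in double-deficient and -1.17 in DNase II-deficient minus wild-type. Tfrc was higher in the DNase II-deficient array, at 17.7 (double-deficient), 33.5 (DNase II-deficient) and 18.6 (wild-type). The 7 granulocyte markers summed to 597 (double-deficient), 743 (DNase II-deficient) and 262 (wild-type), with 5 of the 6 compared 2-fold higher in the double-deficient (background 1.12%) and 6 in the DNase II-deficient array (background 4.29%). The 7 macrophage markers summed to 32.2 (double-deficient), 28.2 (DNase II-deficient) and 88.6 (wild-type). Most of the wild-type sum came from Marco and Cd5l, which the rule left out by name. Of the 5 compared, these and Clec4f, also left out, were 2-fold lower in both mutants, with Clec4f at the floor in the double-deficient array. The other 2 compared were not: Mertk lay at 0.02 (double-deficient) and -0.04 (DNase II-deficient), and Vcam1 at -0.25 (double-deficient) and 0.28 (DNase II-deficient). Of the markers too dim in wild-type to be compared, Cd14 read above wild-type in both mutants, at 1.69 (double-deficient), 3.32 (DNase II-deficient) and 0.876 (wild-type), and Adgre1 read 0.271 (double-deficient), 0.282 (DNase II-deficient) and 0.269 (wild-type). Of 6 hepatocyte transcription factors compared, 0 were 2-fold lower in either mutant, too few to set against the shares of 0.781% and 6.49% of all probes, and Cebpb was 2-fold higher in the DNase II-deficient array, at 3.71 (double-deficient), 8.92 (DNase II-deficient) and 1.87 (wild-type). The part of cell composition, scale or the single wild-type array in the members' values was not tested.

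On the chromosomes the members were scattered. In the RefSeq annotation of GRCm38.p6 the closest pairs were Sult2a2 with Sult2a8, and Hpgd with Aadat, which have 10 protein-coding genes between them. Abcb11 and Chrna1 had 39 between them, and Rdh7 and Rdh5 had 47.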

How the data were processed

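Fetal liver RNA was measured on 3 arrays, 1 per genotype. Per the labels, poly(A) RNA was selected, copied into biotin-labelled RNA, hybridised, stained with Cy5-streptavidin and analysed with the CodeLink System Software, for which the sources used here give no version, background method, normalisation or filter. On a linear scale, the intensity values that the authors deposited have nearly equal array medians, and 253, 224 and 267 values were at or below 0 in the double-deficient, DNase II-deficient and wild-type arrays. Such a scale hides differences in total RNA, and readings near the floor have no dependable order. Arrays have no read depth.

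Of 20289 probes, 125 lacked a value and were left out. GEO's platform annotation, which can be old, gave 15120 probes 1 symbol, 38 several and 5131 none; only the first were named. All 37 member genes were found in the RefSeq gene table. Of the member probes, 28 carried RefSeq accessions and 9 those of cDNA clones or ESTs; probe sequences were not used here.

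Values under 0.16 were raised to 0.16, and differences are log2 ratios. No test was made, since each genotype has 1 array. The members and the 15 gene lists were chosen with earlier results of these data known; roles, pathways and families were listed after the members were seen. The naming rule (largest differences per list and outside the lists, highest and lowest mutant ratios, probes nearest the limit) named 31 members; Aadat, Gatc, Gldc, Hdac11, Rmi1 and Slc47a1 were named after their values were seen, as were the other genes of the pathways and families. Where a gene had several windows, the first listed was used. Alternatives were the scaling (quantile, 75th percentile, median centring, cyclic loess), the floor, the wild-type minimum, the fold and 1 probe per gene. Python 3.11.15, pandas 2.3.3 and limma 3.58.1 in R 4.3.3 were used. The selection code was also run on simulated data, with 4-fold lower values planted in probes with a wild-type value above 2. Of the members, 6 were 4-fold lower in both mutants and 13 read at most 2 in wild-type. The simulated run therefore does not bear on most members.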

Additional observations from a re-analysis of the deposited data

How the results depend on the processing

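The number of members depended on the level limits, the fold and the scaling. It was 37 as given, 32, 30, 27 and 30 under quantile, 75th percentile, median-centred and cyclic loess scaling, all of them among the 37, 33 with 1 probe per gene and 37 with a floor of 0.5. It was 24 with the floor at the array median, 24 with a wild-type minimum of 2, 64 with no minimum and 6 with a limit of 0.25 times wild-type, where the medians were -2.30 in double-deficient and -2.77 in DNase II-deficient minus wild-type. Keeping the genes left out by name, an alternative chosen after seeing the data, gave 44. Members at least 2-fold higher in the double-deficient than in the DNase II-deficient array numbered 5. They numbered 2 after centring, 3 after loess, 3 with the floor at the median and 1 with the limit of 0.25. There were 4 with a floor of 0.5 and 4 with a wild-type minimum of 2. The members' median in double-deficient minus DNase II-deficient was 0.49 as given. It was 0.16 with a floor of 0.5, 0.13 with the floor at the median and 0.15 with no wild-type minimum. Over all probes these settings gave 0.14, 0.12 and 0.10. It was 0.46 with a wild-type minimum of 2, 0.50 with 1 probe per gene and 0.67 with the limit of 0.25. Over all probes these gave 0.16, 0.14 and 0.14. Under quantile, 75th percentile, median-centred and cyclic loess scaling it was 0.50, 0.45, 0.41 and 0.41. Over all probes these scalings gave 0.06, 0.06, -0.01 and -0.01. The members' medians against wild-type were negative under every setting, which was fixed in advance because each setting applied the limits again. Scaling moved the median of all probes in DNase II-deficient minus wild-type to -0.01 after loess, against -0.24 as deposited. No difference of at least 2-fold changed sign in any member under the 4 scalings. These scalings moved every member's log2 difference by less than 0.46, so no such change could occur. Members lower in the double-deficient than in the DNase II-deficient array numbered 13 after centring and 10 after loess, against 5. The counts of 13 and 10 include Chrna1, whose mutant values were both below the floor and have no measured order. No paired analysis was possible because each genotype has 1 array. Arrays without replicates, and the dimness of many members, limit every value.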
